A study of Mus musculus with 2 samples.

Results

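Interferon-stimulated genes and interferon regulatory factors (IRFs) were examined in LSEC (liver sinusoidal endothelial cells), whose thin, perforated layer filters and scavenges the blood of the liver. The set held 43 genes, taken as every probe that the wild-type array file names after one of them, out of 31896 named genes or unnamed transcripts with a probe. They had 54 probes at 63 spots. Of the 43, 42 were well above background on both arrays and 1, Irf4, on neither.

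The study put LSEC RNA of a single wild-type male on 1 array and that of a single ob/ob male on another, each mouse aged 8 weeks. The ob/ob mouse lacks functional leptin, the satiety hormone of fat cells, and becomes obese. Both preparations came from a collagenase digest of the liver and spent a night in culture with serum, and the strain background is not given in the sources used here. With 1 mouse and 1 array per genotype, no difference below has a replicate check, and no test was run. Leptin's own probe did not reach a level well above background, so it checks nothing about the genotype.

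Interferons are cytokines that cells release on sensing viral nucleic acids. Type I interferons bind a receptor of IFNAR1 and IFNAR2, whose kinases JAK1 and TYK2 activate STAT2. With IRF9 it takes part in a complex that binds a DNA element called the interferon-stimulated response element, in front of genes whose products block viral entry, translation and replication. Interferon gamma uses the receptor chains IFNGR1 and IFNGR2, and its targets often carry another element, the gamma-activated sequence. Many of the induced genes encode the pathway's own sensors and transcription factors, so that a cell exposed to interferon carries more of them.

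The promoters of the set show the element in question. RefSeq's promoter table (build GRCm38.p6, 250 bases before to 50 after each start site) held 35 of the 43 genes. The core of the response element was searched on both strands as GAAA, then NN (any bases), then a second GAAA. It stood in 15 of the 35 (42.9%), against 3.99% of the 27025 genes in the table. The gamma-activated sequence, searched as TTCNNNGAA, which is its own reverse complement, stood in 11 of the 35 (31.4%), against 9.55%. For 11 genes a response element core lay before the start site, and the stretches of 6 are shown because they include both core-bearing genes that were at least 2-fold higher (Oas3 and Gbp2), next to 4 classical targets that were not. Capitals mark the cores.
Oas3: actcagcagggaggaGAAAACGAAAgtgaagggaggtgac
Gbp2: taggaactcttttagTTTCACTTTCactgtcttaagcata
Isg15: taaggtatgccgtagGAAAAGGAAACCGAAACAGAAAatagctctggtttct
Ifit1: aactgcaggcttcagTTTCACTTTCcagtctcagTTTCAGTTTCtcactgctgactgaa
Stat2: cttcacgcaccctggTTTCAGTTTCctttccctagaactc
Bst2: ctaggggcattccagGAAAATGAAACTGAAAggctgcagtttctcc
All are read 5′ to 3′ on the strand of the gene. They lie at chr5:120777710-120777749 (minus strand), chr3:142620589-142620628 (plus), chr4:156200860-156200911 (minus), chr19:34640770-34640828 (plus), chr10:128270261-128270300 (plus) and chr8:71537572-71537617 (minus). Isg15 carried 3 overlapping cores, Ifit1 a separate pair and Bst2 an overlapping pair. The last core ended 65 bases before the start site in Oas3, 49 in Gbp2, 56 in Isg15, 75 in Ifit1, 212 in Stat2 and 114 in Bst2. The 15 genes with a core had a median log2 difference of 0.01 (range -0.54 to 1.73, 2 at least 2-fold higher in ob/ob cells), and the 19 measured genes without one had 0.14 (range -0.63 to 1.83, also 2). Mx1, Oas2 and Zbp1, also at least 2-fold higher, had no promoter in the table and are in neither group. Of the 11 genes with a gamma-activated sequence 0 were at least 2-fold higher (median 0.15), and of the 23 measured genes without one 4 were (median -0.07). A match is a description of letters, not of binding.

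Each signal is a processed spot intensity relative to its own array's 75th percentile, which was 989 for wild-type and 1430 for ob/ob. Each difference is a log2 value, with the wild-type level taken from the ob/ob level, so that positive values are higher in ob/ob cells. A signal is comparable between the arrays for 1 probe, not between probes. Of the 42 measured genes, 7 were at least 2-fold higher in ob/ob cells (16.7%), 0 were at least 2-fold lower and 35 lay within 2-fold. Across all 18147 genes measured on both arrays, 5.83% were at least 2-fold higher and 2.29% lower. The median difference of the set was 0.15 (quartiles -0.16 and 0.41), and that of all genes -0.12 (quartiles -0.34 and 0.16). Kupffer cell and macrophage markers were higher as well, 12 of 13 at least 2-fold. In bulk RNA, more cells of a type and more RNA per cell cannot be told apart, and the part of these cells in the interferon values was not tested. The counts depended on the scaling. With the array median in place of the 75th percentile, which moves every difference by -0.28, 4 of the 42 were higher (9.52%) and 0 lower, against 4.24% and 5.39% of all genes, and the median of the set was -0.13 against -0.40 for all genes.

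The technical spread sets what can be told apart on these arrays. Probes for the same gene scattered with a pooled SD of 0.33 on the log2 scale (3688 genes with several measured probes). The scanner's error model gives a typical difference an SD of 0.20, but this is nearly all a preset error of 0.1 of the signal per array, not a measured spread. The 10 spots of Ifitm3 differed with an SD of 0.04 (range -0.06 to 0.07). None of these covers the spread between mice or preparations. In the set, 25 genes lay within 0.33 of 0, 11 lay above and 6 below. All genes had quartiles of -0.34 and 0.16, so values more than 0.33 below 0 were common among them. How many of all genes lay past 0.33 in each direction was not counted.

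**Figure D1:**
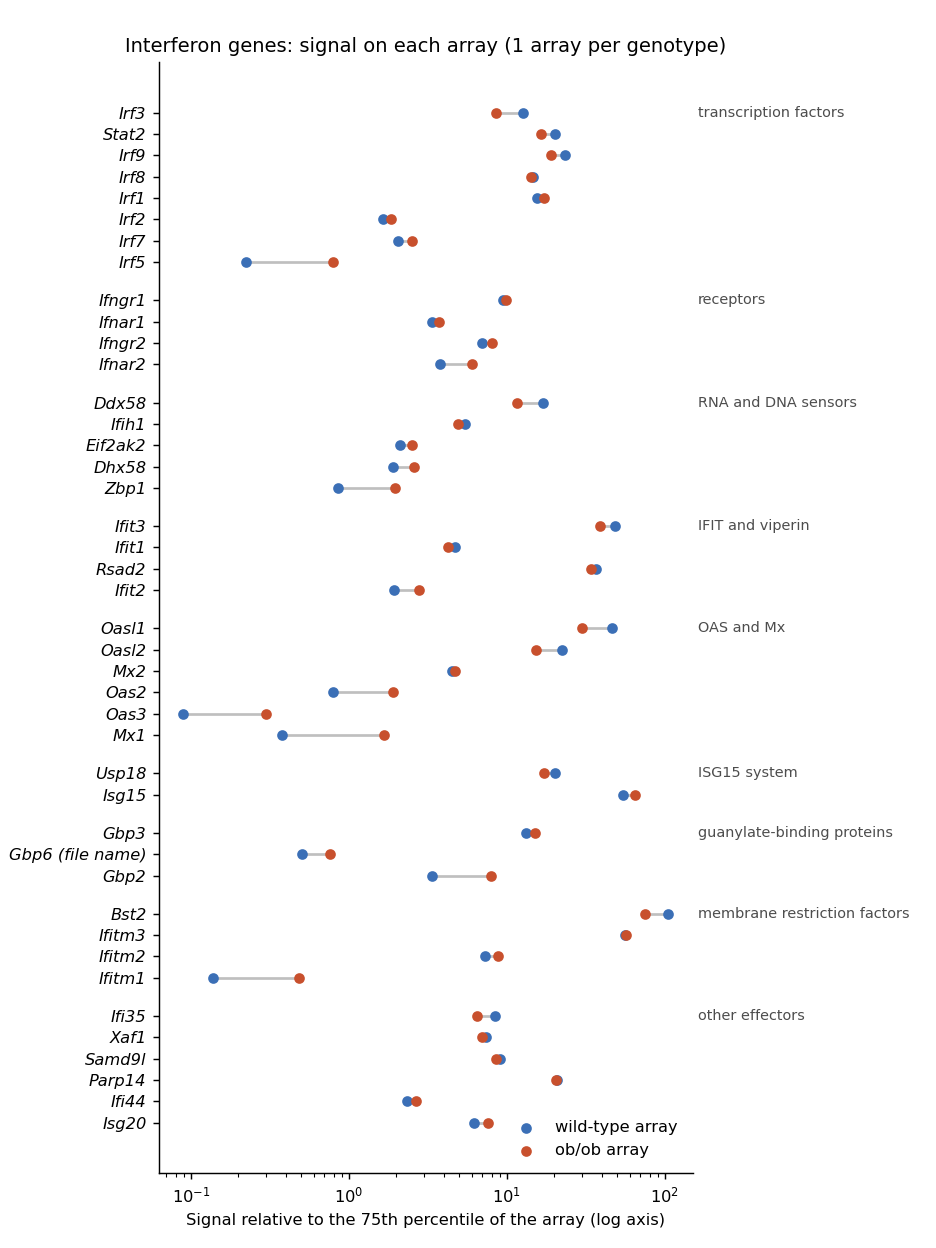
Signal of each of the 42 measured interferon genes on the wild-type (blue) and the ob/ob array (red), relative to the 75th percentile of the array, on a log axis and grouped by role, with 1 array per genotype and 1 probe per gene. The points of 35 genes lie within 2-fold of each other, while those of Irf5, Zbp1, Mx1, Oas2, Oas3, Gbp2 and Ifitm1 are at least 2-fold apart; positions of different genes are not comparable.

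Of the transcription factors, 1 of 8 measured was at least 2-fold higher, against 5.83% of all genes. The role groups hold at most 8 measured genes, so a single gene moves their share a lot. Irf5, which drives inflammatory cytokine genes downstream of Toll-like receptors in myeloid cells, gave 0.223 for wild-type and 0.790 for ob/ob LSEC. The difference was 1.83, beyond the probe SD of 0.33. The probed stretch is bases 29486901 to 29486960 of chromosome 6 (mm9, the build of the array file).

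The factors that relay the interferon signal and those that drive interferon production lay within 2-fold. Stat2 had signals of 20.3 and 16.4 (-0.31), and Irf9, its DNA-binding partner, 23.3 and 19.0 (-0.30). Irf7, the induced factor that amplifies type I interferon production, had 2.04 and 2.497 (0.29). Irf3, the constitutive factor that starts interferon transcription, had 12.7 and 8.60 (-0.56), below 0 under all 10 processing settings tried. The differences of Stat2 and Irf9 had either sign over those settings. At the main setting both were below 0 but within the probe SD of 0.33, so no direction is given for the relay.

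Irf1, an early factor of the interferon gamma response, had signals of 15.5 and 17.1 (0.14), and its antagonist Irf2 had 1.65 and 1.84 (0.16). A second Irf1 probe, for another transcript, stood above background on the ob/ob array alone, where it was brighter by at least 1.38-fold. Irf8, which macrophages and dendritic cells need for their development, had signals of 14.6 and 14.3 (-0.03). The probe of Irf4, a factor of lymphocytes and dendritic cells, stayed near background in both samples. Irf5 was thus the only measured factor that was at least 2-fold higher. Its probe lies in the middle of 5 classes of signal described below, and that of Irf8 in the brightest, where differences were lower in general.

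All 4 receptor chains lay within 2-fold. Ifnar2, the high-affinity chain for type I interferon, had signals of 3.80 and 6.03, a difference of 0.67, and was above 0 under all 10 settings. Its partner Ifnar1 had 3.34 and 3.71 (0.15), with 0.44 and -0.05 at its other probes. The interferon gamma receptor chains Ifngr1 and Ifngr2 had 9.52 against 9.93 (0.06) and 7.01 against 8.11 (0.21). At the brightest probe of each gene, only Ifnar2 of the 4 chains differed by more than the probe SD of 0.33, while the dimmest Ifnar1 probe, at 0.44, did so too.

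Of the nucleic acid sensors, 1 of 5 was at least 2-fold higher, against 5.83% of all genes. Zbp1, which binds left-handed nucleic acid and can start necroptosis, had signals of 0.851 and 1.96 at its brighter probe (1.20) and of 0.171 and 0.636 at the other (1.89). Its probes gave the same direction and both exceeded 2-fold, although by different amounts. Dhx58, a regulator of the RNA helicase sensors also called LGP2, had 1.90 and 2.59 (0.45). Eif2ak2, the kinase PKR that halts translation on binding double-stranded RNA, had 2.11 and 2.52 (0.26).

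The helicases that sense viral RNA lay within 2-fold. Ddx58, the sensor RIG-I, had signals of 16.97 and 11.7 at its brighter probe (-0.54), below 0 under all 10 settings, and a difference of -0.08 at the dimmer one. Ifih1, the sensor MDA5, had 5.47 and 4.90 (-0.16) and 0.38 at its second probe. The sensors therefore spread over both sides of 0.

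The IFIT proteins, which bind viral RNA and block its translation, and Rsad2, the enzyme viperin that makes a chain-terminating nucleotide, all lay within 2-fold. Ifit1 had signals of 4.73 and 4.22 (-0.17), Ifit3 of 48.0 and 39.0 (-0.30) and Rsad2 of 36.9 and 34.3 (-0.11), and each of these had either sign over the settings. Ifit2 had 1.94 and 2.77 (0.51), above 0 under all settings.

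The oligoadenylate synthetases make, on double-stranded RNA, the messenger that activates RNase L, and the Mx GTPases trap viral nucleocapsids. Their group held the widest spread, with 3 of 6 at least 2-fold higher, against 5.83% of all genes. Mx1 had the largest difference of the set, with signals of 0.380 and 1.67 and a difference of 2.14 (probe at chromosome 16, 97668644 to 97668703, mm9). Many laboratory mouse strains carry a defective Mx1 gene. Mx2 had signals of 4.53 and 4.73, a difference of 0.06. The pair therefore differed by 2.07 on the log2 scale.

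Oas3 had signals of 0.0897 and 0.299, a difference of 1.73, which was 0.32 with normexp background correction and the 75th percentile. Oas2 had 0.793 and 1.91 (1.27). The synthetase-like proteins lay on the other side. Oasl1, which represses Irf7 translation, had signals of 46.3 and 29.9 (-0.63), the lowest value of the set. Oasl2 had 22.3 and 15.2 (-0.55), and both were below 0 under all 10 settings.

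The ubiquitin-like modifier Isg15 had signals of 54.6 and 65.0 (0.25) and a difference of 0.48 at its second probe. Usp18, the protease that removes Isg15 from proteins and damps signalling at Ifnar2, had 20.1 and 17.3 (-0.22). Both lay within 2-fold, and the sign of each at its brighter probe depended on the settings.

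Guanylate-binding proteins are GTPases that attack the vacuoles of intracellular pathogens and are induced most by interferon gamma. Among them 1 of 3 was at least 2-fold higher, against 5.83% of all genes. Gbp2 had signals of 3.38 and 7.90 (1.23, and 0.95 with scaling on the array median), and Gbp3 of 13.2 and 15.2 (0.20). The probes that the array file names Gbp6 lie on chromosome 3. One carries an accession that RefSeq now gives to Gbp7, with signals of 0.508 and 0.762 (0.58), and the other was above background on the ob/ob array only. The gene now called Gbp6, on chromosome 5, stands in the file under the older name Mpa2l, and its probes disagreed. One had signals of 3.81 and 1.47 (-1.38) and the other 0.341 and 0.720 (1.08), so no direction is given for it, and these probes were looked at after their values were seen.

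Of the membrane proteins that restrict viruses at the cell surface and in endosomes, 1 of 4 was at least 2-fold higher. The share of all genes was 5.83%. Ifitm1 had signals of 0.138 and 0.483, a difference of 1.81, and 0.92 with normexp and the 75th percentile. Ifitm3, spotted 10 times, had 56.2 and 56.7 (0.01), and Ifitm2 had 7.30 and 8.74 (0.26). Bst2, tetherin, which holds budding virions at the surface, had signals of 105 and 74.8 (-0.49). Ifitm1 thus differed from the closely related Ifitm2 and Ifitm3.

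The 6 other effectors all lay within 2-fold, from -0.37 to 0.28, with a median of -0.04. Ifi35 had signals of 8.44 and 6.52 (-0.37) and was below 0 under all settings. Isg20, an RNA exonuclease, had 6.24 and 7.55 (0.28) and Ifi44 2.33 and 2.68 (0.20). Parp14, an ADP-ribosyltransferase, had 20.7 and 20.3 (-0.02), Samd9l, a restriction factor of poxviruses, 8.998 and 8.60 (-0.07), and Xaf1, a promoter of apoptosis, 7.42 and 6.99 (-0.09).

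**Figure D2:**
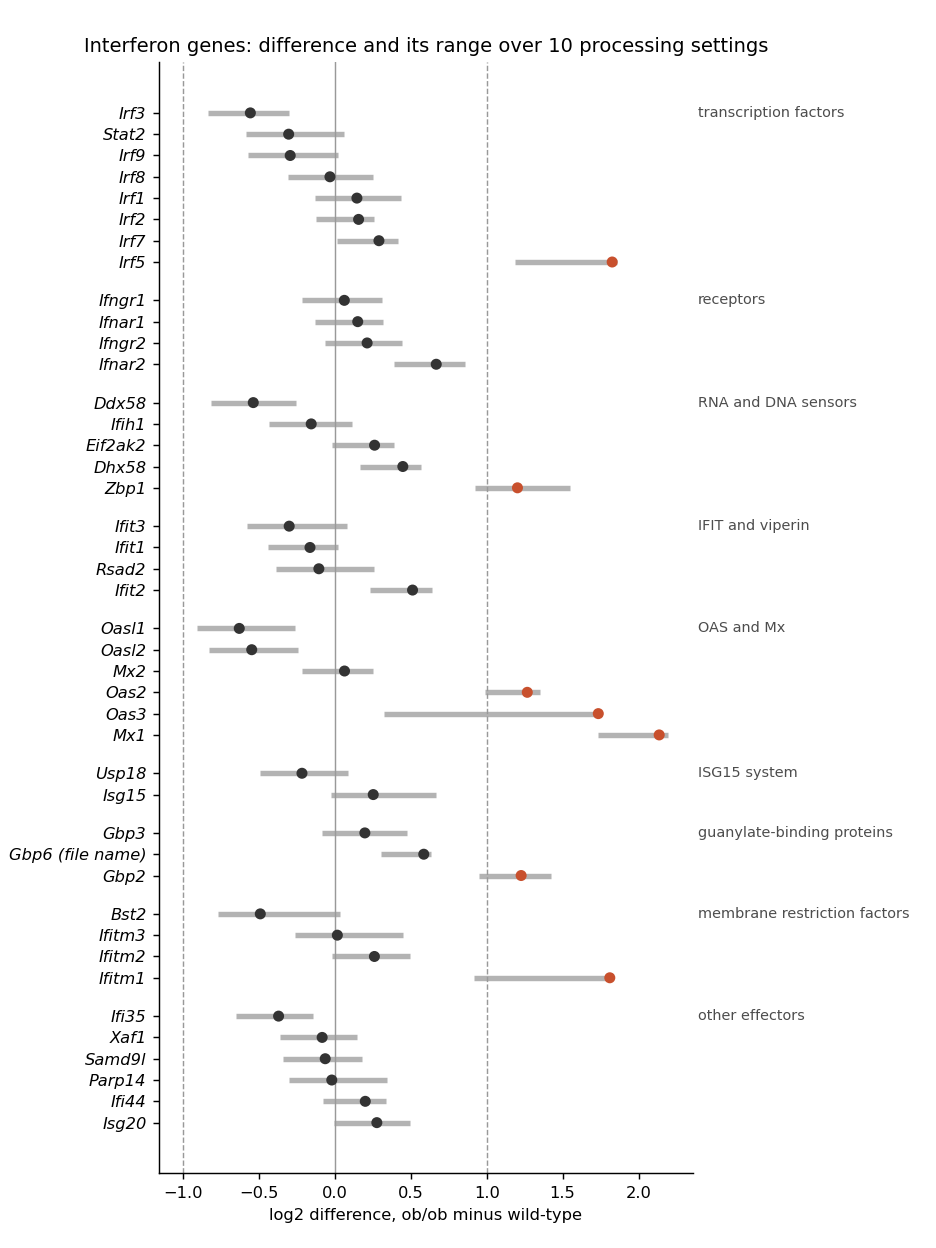
The log2 difference, ob/ob minus wild-type, of each of the 42 genes (points, red where at least 2-fold higher) and its range over 10 processing settings (grey bars), grouped by role, with dashed lines at 2-fold. Mx1 and Irf5 stay beyond 2-fold over their whole bar, and no bar reaches 2-fold lower.

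Over all 10 settings, 12 genes stayed above 0, 5 stayed below 0 (Ddx58, Ifi35, Irf3, Oasl1 and Oasl2) and the sign of 25 varied. Some settings reuse the main signals and scaling, so the 10 are not independent checks. At the main setting 59.5% of the set and 37.3% of all genes lay above 0. How many of all genes keep their sign over the settings was not counted. The 12 were the 7 genes named as at least 2-fold higher with Ifnar2, Gbp6 as the file names it, Ifit2, Dhx58 and Irf7. The lowest value of Irf7 was 0.01, with scaling on the array median. Of the 7, Mx1 and Irf5 were at least 2-fold higher under every setting, with lowest values of 1.73 and 1.19. With scaling on the array median Oas2 was at 0.99 and Zbp1 at 0.92.

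The share of all genes past 2-fold moved with the setting too. Quantile normalization gave 7 interferon genes higher and 0 lower, against 5.05% and 3.07% of all genes. Centring on the signal trend also gave 7 and 0, against 6.17% and 1.72%. Normexp background correction gave 5 and 0 with the 75th percentile, against 2.03% and 21.1%, and 6 and 0 with quantile normalization, against 2.82% and 0.716%. The count stayed at 7 and 0 in 4 further settings, which reuse the main signals and scaling and so could hardly move it. These were the deposited ratios (5.82% and 2.28% of all genes), genes measured on at least 1 array (10.5% and 3.25%), flagged spots kept (5.83% and 2.3%) and the mean over the probes of a gene (5.82% and 2.14%).

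The differences followed the signal of the probe. All genes were put in 5 classes of equal size by mean signal. Bright probes had lower differences in general, with a median of -0.31 in the brightest class of all genes and 0.03 in the second-dimmest. The brightest class held 23 of the 42 interferon genes, with a median of -0.09 and 0 at least 2-fold higher, where 0.771% of all genes were. In the class below it 1 of 12 was at least 2-fold higher (Gbp2) against 2.81% of all genes. In the middle class it was 4 of 5 (Irf5, Mx1, Oas2 and Zbp1) against 5.87%, and in the second-dimmest 2 of 2 (Ifitm1 and Oas3) against 11.5%. After the difference of each gene was centred on a lowess curve over the signal, 35 of the 42 lay above the curve and the median was 0.32, against 0.01 for all genes. The 5 genes below 0 under all settings are in the brightest class. They lay from -0.15 (Ifi35) to -0.30 (Irf3) off the curve, within the probe SD of 0.33. The bright probes of the set included those of Isg15, Ifit3, Rsad2, Oasl1 and Bst2, genes of the core response to type I interferon.

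**Figure D3:**
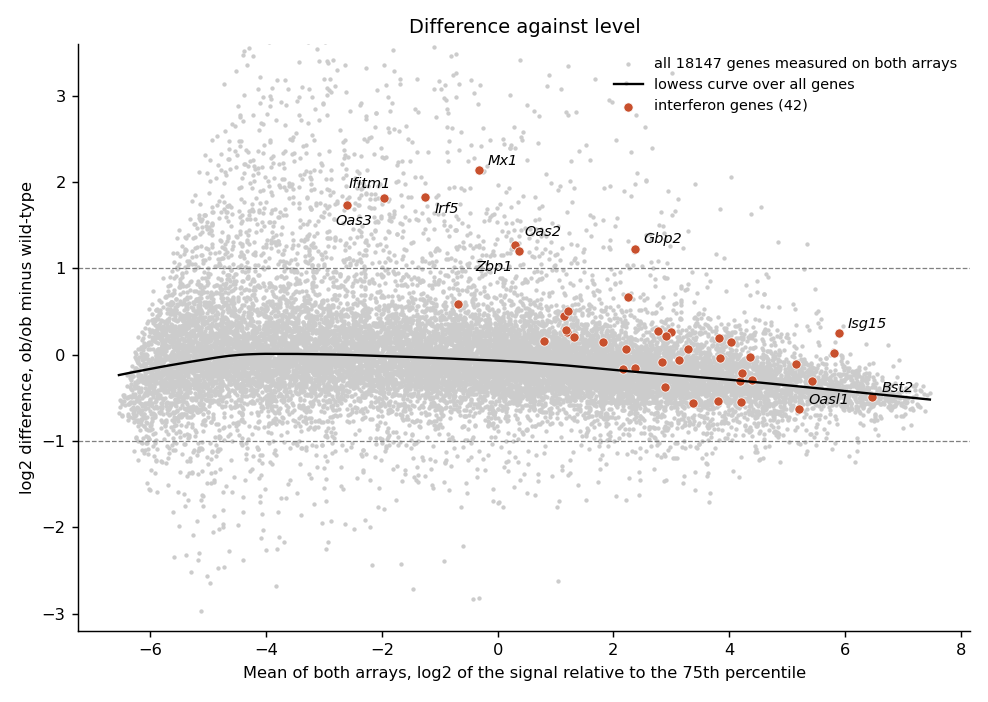
The log2 difference, ob/ob minus wild-type, against the mean log2 signal of both arrays for all 18147 genes measured on both (grey, 34 of them outside the plotted range), with a lowess curve (black), dashed lines at 2-fold and the 42 interferon genes in red. Of the 7 interferon genes beyond 2-fold, 6 lie at middle and low signals and Gbp2 lies in the second-brightest class, while those of the brightest class lie from -0.30 (Irf3) to 0.67 (Isg15) off the curve.

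Several genes of the set lie next to each other on the genome. With probes at most 500 kb apart on mm9, 19 genes formed 7 groups. Neighbours agreed in 3 of the groups within 0.52 on the log2 scale. Oas2 and Oas3, 23.3 kb from end to end on chromosome 5, were both at least 2-fold higher, and Oasl1 and Oasl2, within 25.8 kb elsewhere on that chromosome, were both below 0. The receptor genes Ifnar2, Ifnar1 and Ifngr2 span 170 kb of chromosome 16 and ranged from 0.15 to 0.67.

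In the other 4 groups neighbours spread more widely. Mx1 and Mx2 lie within 114 kb of chromosome 16 and had differences of 2.14 and 0.06. Ifitm1 lies between Ifitm2 and Ifitm3 on chromosome 7 and had 1.81, against 0.26 and 0.01 beside it and 0.29 for Irf7 in the same 310 kb. The Ifit genes on chromosome 19 ranged from -0.30 to 0.51 and the guanylate-binding genes on chromosome 3 from 0.20 to 1.23. Members of these families are similar in sequence, and how far their probes cross-hybridise was not tested.

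**Figure D4:**
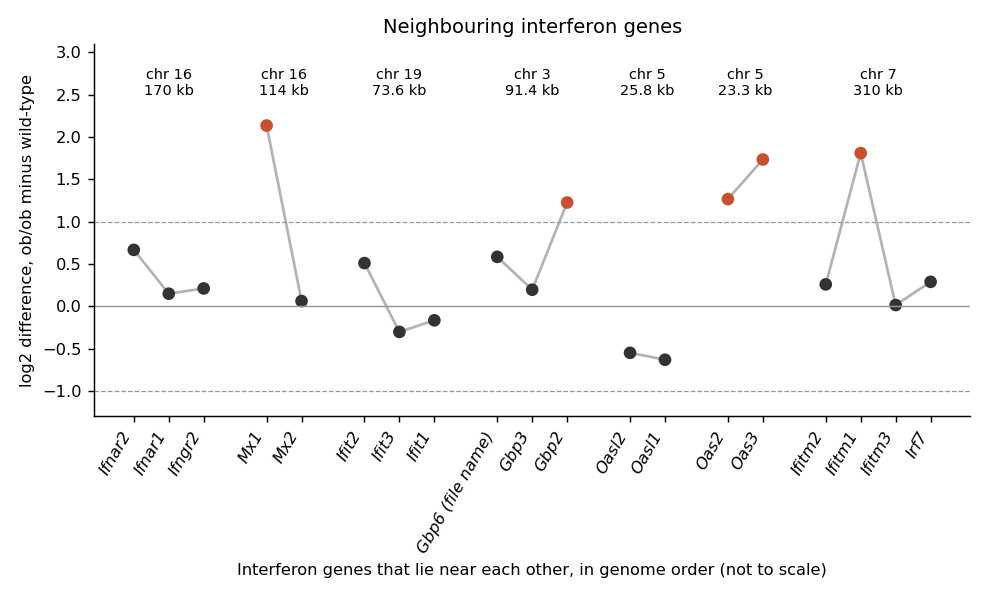
The log2 difference, ob/ob minus wild-type, of the 19 interferon genes that lie near another gene of the set, in genome order within 7 groups (lines join neighbours, red points are at least 2-fold higher, spacing is not to scale). Oas2 and Oas3 are both high, Oasl1 and Oasl2 both low, while Mx1 and Ifitm1 stand far above their neighbours.

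Probes of 1 gene gave the same call. Of the 10 genes with more than 1 probe, 8 had at least 2 probes measured on both arrays. None of these fell on opposite sides of 2-fold or over 1 apart on the log2 scale. The gaps ran from 0.05 for Samd9l to 0.69 for Zbp1. For Ifih1, Ifnar1 and Xaf1 the probes had opposite signs, all within 2-fold. The dimmest measured probe gave the highest value in Ddx58, Ifih1, Ifnar1, Isg15, Isg20, Xaf1 and Zbp1, but not in Samd9l.

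A further 129 genes of the pathway had probes, and 111 of them were measured in both samples. Of these, 15 were at least 2-fold higher (13.5%, against 5.83% of all genes), 0 lower and 96 within 2-fold, with a median of 0.16. None of the genes that encode interferons themselves and were measured in both samples was at least 2-fold higher. Ifnb1, the first interferon that most cells make, had signals of 0.165 and 0.124 (-0.41). The probe of interferon gamma, Ifng, was not well above background in either sample.

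Of the 14 genes that encode interferons and had a probe, 8 were measured in both samples. These 8 lay within 2-fold, from -0.96 (Ifna2) to 0.80 (Ifna12) with a median of -0.40. A further 4 were above background on the wild-type array only. These were Ifne (at least 7.54-fold brighter there), Ifna4 (4.75-fold), Ifna13 (2.88-fold) and Ifna11 (1.74-fold). All were dim, with wild-type signals from 0.0143 (Ifna11) to 0.0617 (Ifne). The 8 genes measured in both samples were dim too, with wild-type signals of at most 0.165 (Ifnb1). How many of all genes were above background on the wild-type array only was not counted. The genes of this paragraph were named after their values were seen. The alpha interferon genes are close copies of each other, so which of them a probe reads is uncertain.

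The signal transducers had 0 of 7 beyond 2-fold. The kinases Jak1 and Tyk2 had signals of 23.1 and 19.4 (-0.25) and of 0.263 and 0.383 (0.54).

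Among the genes that induce interferon, 3 of 14 were at least 2-fold higher (Ikbke, Tlr7 at 1.25 and Unc93b1 at 1.02), and among other induced genes 10 of 77. Across all genes, 5.83% were at least 2-fold higher. Of the feedback genes 2 of 5 were, the phosphatase Ptpn6 (2.01) and the signalling suppressor Socs3 (1.34). Tlr7, Unc93b1, Ptpn6 and Socs3 were named after their values were seen. Among genes measured on both arrays, the largest differences were those of Ikbke, a kinase that activates Irf3 and Irf7 (signals 0.0269 and 0.205, difference 2.93, and 0.31 with normexp and the 75th percentile), and of Ifit1bl1, a paralog of Ifit1 (0.0222 and 0.113, 2.35, and -0.28 with that correction, so that its direction is not settled). Ifi27l2a, an interferon-induced gene, followed with 1.39 and 6.64 (2.26), then Slfn8 with 0.181 and 0.755 (2.06). In general, more of the 43020 non-control spots were well above background on the ob/ob array (27873) than on the wild-type array (25224). A further 9 induced genes were above background on the ob/ob array only. Their bounds ran from at least 1.17-fold (Cd69) to at least 5.16-fold brighter (Slfn1), with Gbp8 at 3.98-fold, except that Ifi27l2b allowed no fold. These were named after their values were seen.

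Markers of some other cell types were higher on the ob/ob array, and those of others were not. Of the Kupffer cell and macrophage markers 12 of 13 measured were at least 2-fold higher, with a median of 1.83, and their summed signal went from 57.0 (wild-type) to 162 (ob/ob). Their brightest members, Marco, Cd5l and Csf1r, had differences of 1.29, 1.31 and 1.002, and Cd163 was above background on neither array. Hepatocyte markers had 6 of 8 higher (median 2.73, summed signal 4.88 and 28.4) and stellate cell markers 6 of 6 (2.19, 8.30 and 34.6). In the conventional dendritic cell list 2 of 4 were higher, Ccr7 at 4.11 and Itgax at 3.54, with Clec9a at 0.21 and Zbtb46 at -0.23. Xcr1 and Cd209a were not above background on either array. Flt3 of that list was above background on the ob/ob array only, at least 2.66-fold brighter. The plasmacytoid dendritic cell list had 1 of 4 higher, Cox6a2 at 1.49, with Clec4b1 at 0.94, Siglech at -0.37 and Pacsin1 at -0.41. Its other members, Ccr9 and Klk1, were above background on the ob/ob array only, at least 2.84-fold and 1.52-fold brighter.

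Lymphocyte and neutrophil markers were mostly dim. More spots of any kind were well above background on the ob/ob array (27873) than on the wild-type array (25224). In the B cell list 0 of 2 measured were beyond 2-fold, and Ms4a1, Cd79a and Pax5 were among those above background on neither array. In the T and NK cell list 0 of 3 were beyond 2-fold, and 3 more, Cd3d, Cd3g and Gzmb, were above background on the ob/ob array only. Neutrophil markers had 0 of 3 higher and 2 lower (Elane and Mpo), and S100a8, S100a9 and Mmp8 were above background on the ob/ob array only. The markers of the labelled cell type were present on both arrays, with 9 of 9 sinusoidal (median -0.22) and 7 of 7 pan-endothelial markers (0.12) within 2-fold. The sinusoidal markers ran from -0.68 (Oit3) to 0.48 (Cd36) and the pan-endothelial ones from -0.44 (Cdh5) to 0.88 (Tek). The part of hepatocytes, stellate cells and the other listed types in the differences of the interferon genes was not tested either.

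**Figure D5:**
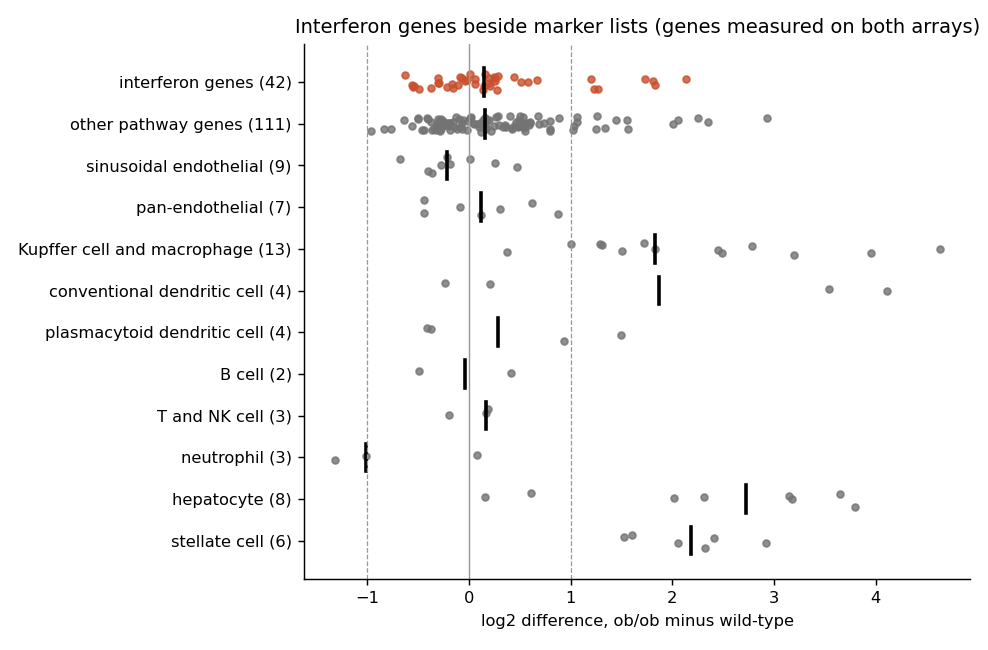
The log2 difference, ob/ob minus wild-type, of each gene measured on both arrays (points, with the number per list in brackets), for the 42 interferon genes (red), 111 other pathway genes and 10 cell marker lists, with list medians as black bars and dashed lines at 2-fold. The interferon genes centre at 0.15 with a tail to 2.14, while macrophage, hepatocyte and stellate cell markers centre at 1.83, 2.73 and 2.19.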

How the data were processed

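RNA of 1 wild-type and 1 ob/ob LSEC preparation was labelled with Cy3 and hybridised to a 1-colour Agilent mouse array, design 026655, both on 1 slide and scanned together. The deposited spot intensity comes from Agilent Feature Extraction 11.0.1.1 (the submitters' processing notes). Per the file headers, local background correction was off, a fitted background surface was subtracted, multiplicative detrending was on, and arrays were not scaled to each other. Per the file headers a p-value against background accompanies each spot and stayed unused here. The table that the authors deposited lists 24868 features, each a ratio of processed intensity to its array's 75th percentile, as a comparison with the scanner values showed, on a linear scale, not centred, with column medians of 0.614 and 0.648.

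Processed intensities of 43020 non-control spots were divided by that percentile and put on the log2 scale, from the deposited intensities. Spots flagged on either array (236) were dropped. Spots of a probe were averaged, probes with over 50% of their spots well above background were called measured, and a gene was represented by its measured probe with the highest mean. For all other genes, names were updated through RefSeq accessions (assembly GRCm38.p6, 26055 of 39429 probes). Where only 1 array was above background, the difference is a bound against the higher of the dim probe's own signal and the dimmest signal well above background on that array (12.3 for wild-type, 11.7 for ob/ob). Local background at interferon gene spots reached at most 70 and 69. The functions were tested on simulated data. Alternatives used limma 3.58.1 (normexp, offset 50; quantile) and a lowess curve from statsmodels 0.14.6. The members and lists were chosen with earlier results of these data known. Named are all members, the 4 largest differences of other pathway genes, Jak1, Tyk2, Ifnb1 and Ifng, and the 3 brightest macrophage markers. Other names were chosen after their values were seen. Some genes that this rule names are not reported here.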

Additional observations from a re-analysis of the deposited data

How the results depend on the processing

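With 1 array per genotype no replicate can be left out, and depth on an array is limited by signal over background. No paired analysis was possible because each group holds 1 array. Scaling on the array median gave 4 interferon genes at least 2-fold higher instead of 7 and, of the other pathway genes, 9 higher instead of 15 and 3 lower instead of 0. Of those other genes, quantile normalization gave 3 lower, normexp with the 75th percentile 14 lower, and taking genes measured on at least 1 array 24 higher and 4 lower, in which more genes are counted (124 instead of 111). Normexp with the 75th percentile put Ifit1bl1 at -0.28. Apart from the scaling, the cause was not tested. Under the other alternatives the count of interferon genes at least 2-fold higher ranged from 5 to 7, and it was 0 for lower under all 9. The gap between the median of the interferon genes and that of all genes ran from 0.23 to 0.56 over all settings, and for the other pathway genes from 0.22 to 0.35.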
